A study of Mus musculus with 2 samples.

Results

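The cells described here are the proximal tubule cells that the authors' deposited annotation names PT-S1 and places in cluster 5. They were taken by that annotation alone and number 784 of 11759 annotated cells, 283 in the control library and 501 in the library of ischaemia-reperfusion injury (IRI). The annotation gives 29 clusters and 18 cell types, and the other PT-S1 cells lie almost entirely in cluster 6 (755 cells), with 50 in cluster 27. Kidney cells were profiled by droplet single-cell RNA sequencing in wild-type C57BL/6 mice aged 9 weeks. The control sample is labelled a normal control, and the other is labelled unilateral IRI with removal of the opposite kidney. The effects of ischaemia and of the nephrectomy therefore cannot be told apart. Tissue was dissociated with Liberase and DNase I and strained, and the labels name no time after injury and no number of mice. With 1 library per condition no test was possible: intervals on shares are exact Clopper-Pearson 95% intervals and cover counting error only, and differences in expression describe these 2 libraries.

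The proximal tubule reabsorbs most of the filtrate in consecutive segments. The first, S1, takes up glucose, lactate and neutral amino acids through sodium-coupled transporters of the brush border, and the last, S3, lies in the outer medulla and is the segment best known for damage by ischaemia. Malat1 and Neat1 are long noncoding RNAs that stay in the nucleus, while mRNAs of ribosomal and respiratory chain proteins are abundant in the cytoplasm.

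The name PT-S1 was checked against markers. Values throughout are corrected counts per cell, the authors' depth-adjusted counts. Slc5a2, the S1 glucose transporter SGLT2, averaged 1.30 in control cells and 0.798 in IRI cluster 5 cells. Slc5a12, a lactate transporter, had means of 1.37 and 0.663. Slc6a19, which carries neutral amino acids, had means of 1.29 and 0.593. In each library these 3 transporters and the noncoding RNA Snhg11 were higher in cluster 5 than in any other cluster with 20 or more cells (26 clusters in control and 23 in IRI). Car12, a membrane carbonic anhydrase, was highest in cluster 5 in IRI and second to the intercalated cells of cluster 22 in control. The 3 transporters were thus those of S1, with an exception among the IRI cells that is given with the segment genes. Snhg11 and Car12 do not bear on the name, as both were low in the S1 cells of cluster 6. There Snhg11 averaged 0.0217 in control and 0.0230 in IRI, and Car12 0.0290 and 0.0793. Slc22a6, a gene of the middle segment S2, was also highest in cluster 5 in IRI, and ranked 4 of 26 in control. Other S2 genes are set against cluster 6 below. As the clusters were made from these same genes, the levels describe the cells and test nothing.

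Genes that define other kidney cells were low. The summed thick ascending limb markers reached 0.219 in control and 0.0719 in IRI cluster 5 cells, against 29.6 and 18.1 in the cells named for that segment. Summed endothelial markers were at 0.0424 and 0.0200, against 13.7 and 11.2 in vascular cells. Macrophage markers summed to 0.254 and 0.515, against 33.8 and 24.8 in resident macrophages, neutrophil markers to 0.00707 and 0.116, and lymphocyte markers to 0.0141 and 0.00599. Wt1, Cldn16, Trpv5, Foxi1, Kdr and Rgs5, which mark podocytes, distal segments, intercalated cells, endothelium and pericytes, were listed at 0 in both libraries. Erythrocyte genes summed to 0.823 in control and 0.112 in IRI. Median raw depth was 5251 UMIs (unique transcript tags) and 1816 genes per cell in control and 7026 UMIs and 2198 genes in IRI. There were 55 cell barcodes found in both libraries, and 8 of the cells of cluster 5 carried one. Leaving these cells out moved none of the 24 genes ranked between the libraries by 1.5-fold or more.

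What set cluster 5 apart from the other S1 cells was nuclear RNA. Malat1 had a mean of 217 in control cells, with a median of 199, quartiles of 123 and 282.5 and a range of 26 to 734. In IRI cells the mean was 166, the median 133, the quartiles 83 and 218 and the range 19 to 770. In cluster 6 the means were 0.612 in control and 0.990 in IRI, and Malat1 was listed at 0 in 73.9% and 51.4% of the cells. The S1 clusters therefore barely overlapped in Malat1. At least 20 Malat1 counts occurred in 283 of 283 control cells and 500 of 501 IRI cells of cluster 5, but in 1 of 276 and 1 of 479 cells of cluster 6. On average Malat1 made up 9.29% of the corrected counts of a control cluster 5 cell and 7.52% of those of an IRI cell.

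**Figure D1:**
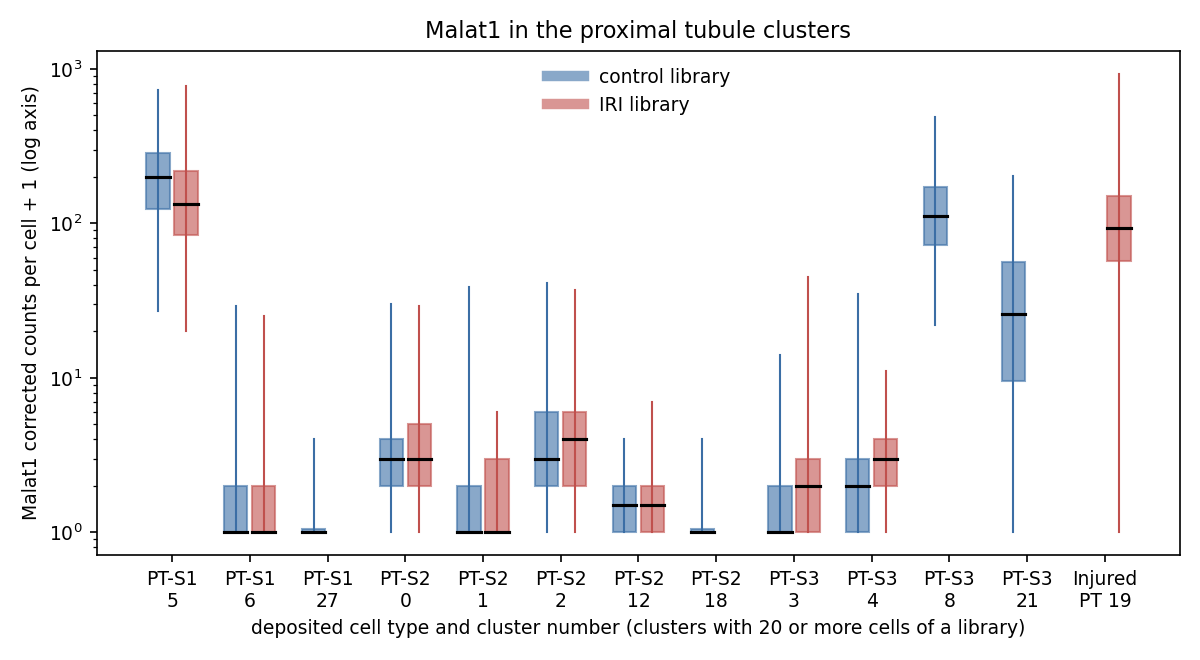
Malat1 corrected counts per cell plus 1 (log axis) in each proximal tubule cluster with 20 or more cells, by library; lines run from the lowest to the highest cell, boxes span the quartiles and the mark inside is the median. Cluster 5 sits at medians of 199 in control and 133 in IRI, far above cluster 6, cluster 8 and the Injured PT cells are the other clusters at such levels, and control cluster 21 lies in between.

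The same cells differed from cluster 6 in the rest of their RNA. Mitochondrially encoded RNA averaged 19.3% of counts in control and 24.6% in IRI cluster 5 cells, against 8.24% and 14.9% in cluster 6. Ribosomal protein mRNAs averaged 8.99% and 10.2%, against 21.0% and 18.6%. Cluster 5 cells were also deeper than cluster 6 cells, whose median raw UMIs were 4296 in control and 2992 in IRI. Depth, mitochondrial share and nuclear RNA were therefore all higher in cluster 5 than in cluster 6, and their part in the gene differences was not tested. Within cluster 5, across the cells of a library, Spearman's rho of the Malat1 share was -0.313 with raw UMIs in the 283 control cells and -0.0869 in the 501 IRI cells. Its rho with the ribosomal share was -0.462 in control and -0.213 in IRI. Its rho with the mitochondrial share was -0.144 in control and -0.393 in IRI. Within the cluster each of these correlations was negative, so that a larger Malat1 share did not go with more depth. The Malat1, ribosomal and mitochondrial shares are parts of the same total, which by itself favours negative correlations. No conclusion is drawn from the signs among these shares.

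Set gene by gene against cluster 6, ratios were formed as log2 of mean plus 0.05 over mean plus 0.05, over genes whose corrected counts summed to 10 or more, and 2-fold was the limit for a count. In the control library 1017 of 8247 genes (12.3%) were at least 2-fold higher in cluster 5 and 362 (4.39%) at least 2-fold lower. In the IRI library 492 of 9211 (5.34%) were higher and 331 (3.59%) lower. The split depended on the scaling. After scaling by the trimmed mean of log ratios, where that mean was 0.63 in control and 0.18 in IRI, 382 were higher and 898 lower in control, and 371 higher and 543 lower in IRI. With totals that leave out mitochondrial, ribosomal and haemoglobin genes and Malat1 (reduced totals), 1266 were higher and 250 lower in control, and 681 higher and 143 lower in IRI.

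Nuclear noncoding RNAs and RNA-processing genes were among the higher groups. Of the listed nuclear noncoding RNAs, 6 of 9 measured were at least 2-fold higher in control (median log2 ratio 2.43). In IRI 5 of 10 were (median 0.95). None was 2-fold lower, but 2 in control and 3 in IRI had ratios below 0. Neat1 averaged 2.40 in control cells and 2.79 in IRI cluster 5 cells, against 0.0652 and 0.0647 in cluster 6, log2 ratios of 4.41 and 4.63. Snhg11 had means of 2.41 and 0.804 against 0.0217 and 0.0230, log2 ratios of 5.10 and 3.55. Kcnq1ot1, the antisense RNA of the imprinted Kcnq1 locus, had means of 0.290 and 0.271 and was listed at 0 in cluster 6 in both libraries. Of 34 splicing and RNA-processing genes, 26 were at least 2-fold higher in cluster 5 in control (median log2 ratio 1.88) and 23 in IRI (median 1.47), against medians over all measured genes of 0.29 and 0.07. Rbm39, a splicing factor, was the member with the highest ratio in control, at 3.31, and stood at 2.26 in IRI. No splicing gene was 2-fold lower in either library, and under the other scalings between 22 and 28 were 2-fold higher. Immediate early genes, which are transcribed within minutes of a stimulus, behaved alike: 13 of 17 measured were at least 2-fold higher in control and 13 of 21 in IRI. Jun, a subunit of the transcription factor AP-1, had means of 1.64 and 1.85 in cluster 5 and 0.109 and 0.111 in cluster 6.

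Transporters and regulators were among the genes that led the ranking in both libraries. Slc22a30, an organic anion transporter family member, averaged 1.03 in control cells and 0.750 in IRI, against 0.0254 and 0.0230 in cluster 6. Pde4d, a cyclic AMP phosphodiesterase, had means of 0.767 and 0.463, against 0.00362 in control cluster 6 cells and a listing of 0 in IRI ones. Timp3, an inhibitor of matrix metalloproteinases, had means of 3.86 and 5.54 against 0.326 and 0.570. Chka, the first enzyme of phosphatidylcholine synthesis from choline, and the transcription factor Zbtb20 had log2 ratios of 2.90 and 3.17 in control and 2.97 and 2.81 in IRI. Of 21 brush-border solute transporters measured in control, 13 were at least 2-fold higher in cluster 5, as were 14 of 22 in IRI, and none was 2-fold lower. With the trimmed mean scaling 7 in control and 12 in IRI were at least 2-fold higher. Slc34a1, the main phosphate transporter, had means of 7.02 and 5.93 against 0.880 and 1.06. Of 10 measured S1 genes, 8 were at least 2-fold higher in control (median 1.74) and 6 in IRI (median 1.05). Of 9 measured S2 genes, 7 were in each library (medians 1.66 and 1.82), and 1 was 2-fold lower in control. Of the S3 genes, 1 of 10 was higher in control (median 0.41) and 5 of 8 in IRI (median 1.55). The difference from cluster 6 was thus not confined to S1 genes.

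Among the lists, nuclear-encoded respiratory chain genes held the most members 2-fold lower. Of 50 nuclear-encoded respiratory chain genes, 21 were at least 2-fold lower in cluster 5 in control (median log2 ratio -0.96) and 21 in IRI (median -0.89), and none was 2-fold higher. Uqcrb, a subunit of complex III, had means of 1.37 and 0.846 against 4.42 and 3.23 in cluster 6. Pfn1, the actin-binding profilin, had means of 0.491 and 0.451 against 1.63 and 1.60. Mif, a small cytokine, had log2 ratios of -1.46 and -1.65, and Fabp3, a fatty acid carrier, -1.68 and -1.45. The mitochondrially encoded genes of the same respiratory complexes went the other way: 12 of 13 were at least 2-fold higher in control (median 1.27) and 3 of 13 in IRI (median 0.67). Both medians kept their sign under the other scalings. The counts did not hold: with the trimmed mean scaling 40 and 27 nuclear-encoded genes were 2-fold lower in control and IRI and 2 and 1 mitochondrial ones 2-fold higher, and with the reduced totals the nuclear-encoded ones numbered 10 and 7. Glycolytic genes were 2-fold lower for 2 of 10 in control (7 with the trimmed mean scaling) and 2 of 13 in IRI (4), and none was 2-fold higher.

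**Figure D2:**
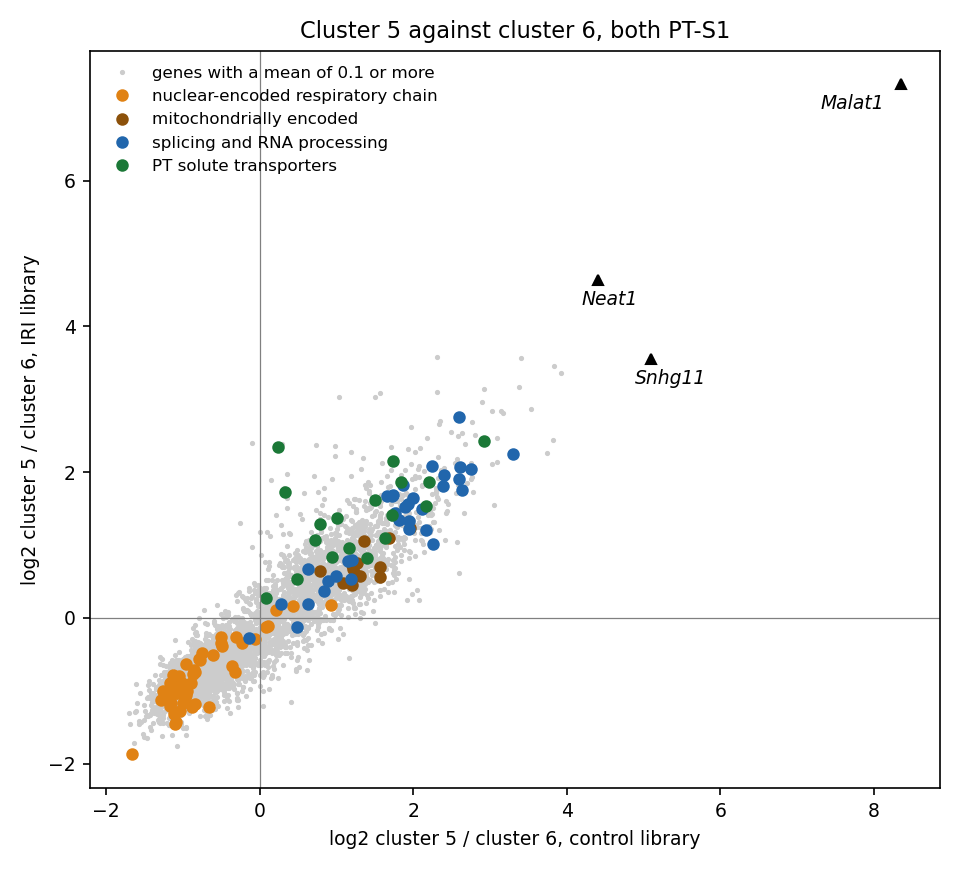
Each point is a gene with a mean of 0.1 or more, with the log2 ratio of cluster 5 over cluster 6 in control cells on the horizontal axis and in IRI cells on the vertical axis (means plus 0.05), and gene lists in colour. Malat1 lies far out at 8.36 and 7.32, splicing genes lie mostly above 1 on both axes, and nuclear-encoded respiratory chain genes lie mostly below 0.

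Cluster 8, named PT-S3 and with 455 of its 459 cells in the control library, shared this nuclear character. Its Malat1 mean was 135, its mitochondrial share 21.2% and its ribosomal share 7.48%. Against it, 234 of 8862 genes (2.64%) were at least 2-fold higher in control cluster 5 cells and 192 (2.17%) at least 2-fold lower. Some of the groups that separated cluster 5 from cluster 6 did not separate it from cluster 8: none of 34 splicing, 50 nuclear respiratory chain and 13 mitochondrially encoded genes differed by 2-fold, with medians of 0.32, 0.00427 and -0.02. Solute transporters did differ, with 7 of 22 at least 2-fold lower in cluster 5 and 1 higher, and so did segment genes. Of 10 measured S1 genes 8 were at least 2-fold higher (median 2.58), and of 11 S3 genes 6 were at least 2-fold lower (median -2.20). Slc5a12 was at 1.37 in cluster 5 and 0.0176 in cluster 8, and Slc7a13, the S3 amino acid transporter, at 0.0813 and 1.81. Snhg11, at 2.41 against 0.198, and Car12, at a log2 ratio of 1.91, were higher in the S1 cluster. Gatm, the first enzyme of creatine synthesis, had means of 3.01 and 0.319.

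Cluster 5 held 4.30% (3.82 to 4.81) of the 6589 control cells and 9.69% (8.90 to 10.5) of the 5170 IRI cells. Among PT-S1 cells its share was 47.2% (43.1 to 51.2) in control and 50.7% (47.5 to 53.8) in IRI. These shares count the authors' assignment, and Snhg11 and Slc6a19, which mark the cluster, themselves differed between the libraries, so they are not read as a change in a cell type. Malat1-rich cells were counted next. Of the cells named PT-S1, PT-S2 or PT-S3, 842 of 4827 (17.4%, 16.4 to 18.5) had at least 20 Malat1 counts in control and 552 of 3261 (16.9%, 15.7 to 18.3) in IRI. The ratio of these shares was 0.970 (0.870 to 1.08). The names rest on the clusters, and the count leaves out the Injured PT and proliferating cells. With those included the shares were 17.4% (845 of 4843) in control and 20.02% (711 of 3551) in IRI, a ratio of 1.15 (1.04 to 1.27), and cluster 5 held 33.5% and 70.3% of these Malat1-rich cells. Among the Malat1-rich cells with a segment name, cluster 5 held 33.6% in control and 90.6% in IRI, and cluster 8 held 54.0% in control and 0.725% (4 cells) in IRI. In the IRI library, then, most Malat1-rich cells with a segment name lay in cluster 5.

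The segment genes were therefore counted cell by cell. An S1 count meant any corrected count of Slc5a2, Slc5a12 or Slc6a19, and an S3 count any of 11 S3 genes, leaving out Kap. An S1 count was present in 267 of 283 cells of the control library (94.3%, 91.0 to 96.7) and in 335 of 501 of the IRI library (66.9%, 62.6 to 71.0). S3 counts without any S1 count occurred in 9 control cells (3.18%, 1.46 to 5.95) and 124 IRI cells (24.8%, 21.0 to 28.8). The IRI cells thus lacked S1 transporters more often although they were deeper. Among cells with 4000 to 8000 raw UMIs the shares with S3 counts alone were 1.22% of 164 control and 21.7% of 235 IRI cells. With every cell thinned to 1500 corrected counts, which left no cell out, they were 5.30% and 26.3%.

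T cells, which should have none of these genes, were set beside cluster 5 as a reference for free RNA. Their S1 share was 10.2% in control (59 cells, median 2606 UMIs) and 9.28% in IRI (97 cells, median 3345 UMIs). Their S3 share was 45.8% (32.7 to 59.2) in control and 10.3% (5.06 to 18.1) in IRI. In cluster 5 the S3 share was 45.2% in control and 45.3% in IRI. The control share thus lay at the level of the control T cells, and the IRI share lay above that of the IRI T cells. T cells were shallower than cluster 5 cells, and the part of free RNA in either share was not tested. Among the IRI cells of cluster 5, an S3 count was found in 74.7% of the 166 cells without an S1 count and in 30.7% of the 335 with one. In cluster 8, for comparison, 16.9% of control cells had an S1 count and 98.9% an S3 count. Part of the IRI library's cluster 5 thus had counts of listed S3 genes and none of these S1 transporters. Slc7a13 averaged 0.0813 in control and 0.0958 in IRI cluster 5 cells, and 0.259 in the IRI cells without an S1 count. In cluster 8 it was at 1.81. The IRI cells without an S1 count also carried S2 genes, with Slc22a6 at 1.40, Slc13a3 at 1.41 and Slc22a8 at 0.367. An S3 count alone therefore does not name their segment. The segment genes and the leading genes between the libraries are given below also for cells with an S1 count (335 IRI and 267 control). Other members are given for all cells of the cluster.

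**Figure D3:**
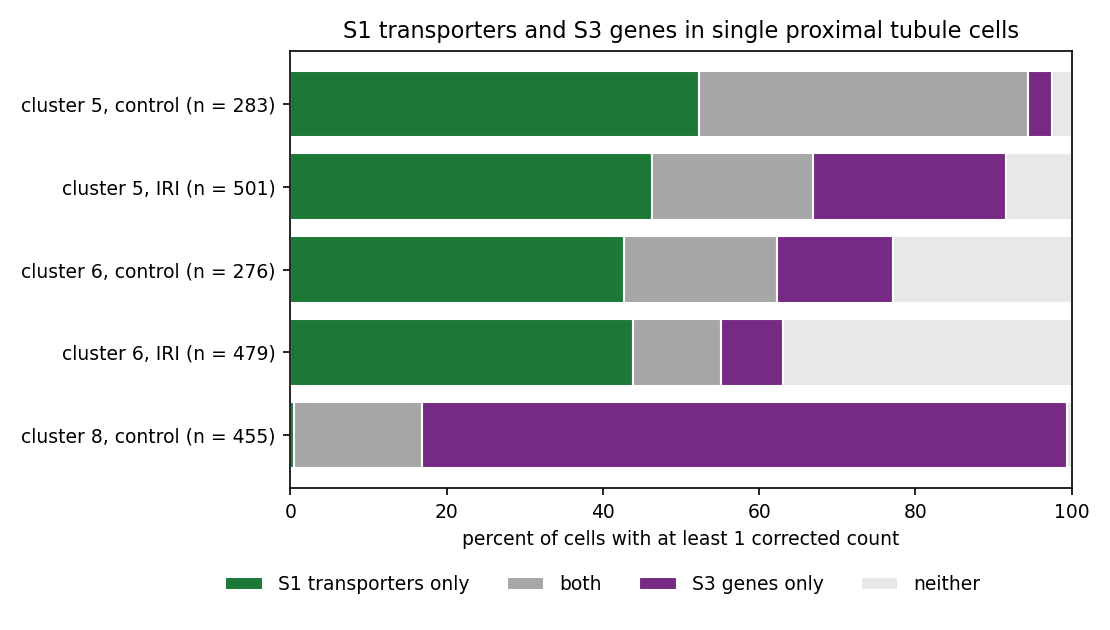
Stacked bars give the percent of cells with counts of S1 transporters alone, of both gene sets, of S3 genes alone and of neither, for cluster 5 and cluster 6 in each library and cluster 8 in control. Cells with S3 genes alone make up 3.18% of control and 24.8% of IRI cluster 5 cells, and 82.4% of cluster 8.

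Between the libraries, 78 of 9332 measured genes (0.836%) were at least 2-fold higher in IRI cells of cluster 5 and 132 (1.41%) at least 2-fold lower. The median over all measured genes was -0.19, and the trimmed mean of log ratios was -0.40, so a gene with no shift relative to the rest lies somewhat below 0. Scaled by that mean, 170 genes were higher and 50 lower. With totals that leave out mitochondrial, ribosomal and haemoglobin genes and Malat1, 112 were higher and 72 lower, and with the mean of each cell's own proportions 83 and 80. The balance of higher and lower genes was therefore set by the scaling, and the leading genes on either side are described.

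Osteopontin led the higher genes. Spp1, the secreted phosphoprotein osteopontin that injured tubules make, averaged 0.346 in control cells and 4.88 in IRI cells, with a count in 25.1% and 93.6% of cells. Its log2 ratio was 3.64 in all cells, 3.51 in cells with an S1 count and 4.09 in cluster 6. In T cells Spp1 was at 0.0508 in control and 0.928 in IRI, and the Injured PT cells stood at 38.4. The part of free RNA in the Spp1 level of cluster 5 was not tested. S100a6, a calcium-binding protein, had means of 0.00353 and 0.257, but T cells, which make it, stood at 1.51 and 3.06. Wfdc2, a secreted whey acidic protein, had means of 0.0106 and 0.244, and Tmsb10, an actin-binding thymosin, 0.0106 and 0.240. Tmsb4x, the related thymosin, had means of 0.113 and 0.661. In cells with an S1 count the log2 ratios of S100a6, Wfdc2, Tmsb10 and Tmsb4x were 2.57, 1.88, 1.83 and 2.27. T cells carry both thymosins at far higher levels, 18.2 and 21.4 of Tmsb10 and 34.8 and 38.2 of Tmsb4x, while the summed lymphocyte markers of cluster 5 were at 0.0141 in control and 0.00599 in IRI. Macrophage and neutrophil markers were higher in its IRI cells. The part of RNA from these cells in the low levels of S100a6 and the thymosins was not tested.

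Of 21 measured tubule injury genes 6 reached 2-fold higher (9 with the trimmed mean scaling) and none 2-fold lower, and the median log2 ratio was 0.68. C3, the central complement component, and Havcr1, which encodes kidney injury molecule KIM-1, were listed at 0 in control and had means of 0.130 and 0.0599 in IRI. Annexin genes, Sox9 and Lcn2 were likewise among 6 members listed at 0 in control. Over the 15 members above 0 in both libraries the median was 0.72. S100a11 had means of 0.177 and 0.497. Against the Injured PT cells of the same library, where Havcr1 stood at 1.33, 16 of 25 injury genes were at least 2-fold lower in cluster 5 (median -1.71), while 244 of 8253 genes (2.96%) were higher and 140 (1.7%) lower by that limit. Cluster 5 also had 9 of 21 immediate early genes and 9 of 20 glucocorticoid and clock genes at least 2-fold higher than the Injured PT cells. T cells of the IRI library had Havcr1 at 0.0412 and Lcn2 at 0.0412, close to the 0.0599 and 0.0299 of cluster 5. The part of free RNA in these low levels was not tested. C3 and Sox9 were listed at 0 in T cells.

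Some fatty acid oxidation genes were also higher. Of the 29 measured, 6 were at least 2-fold higher and none lower, with a median of 0.12. Cyp4a10, a fatty acid omega-hydroxylase, averaged 0.0177 in control cells and 0.479 in IRI, with log2 ratios of 2.97 in all cells and 2.34 in cells with an S1 count. Cyp4a14, the related hydroxylase, was listed at 0 in control and had a mean of 0.455 in IRI. Ehhadh, the bifunctional peroxisomal enzyme, had means of 0.0742 and 0.475, log2 ratios of 2.08 and 1.56. Acot1, a cytosolic acyl-CoA thioesterase, had means of 0.0318 and 0.174. Acaa1b, a peroxisomal thiolase, had means of 0.286 and 0.659, and Pdk4, the kinase that inhibits pyruvate dehydrogenase, 0.0141 and 0.110. Ppara, the nuclear receptor that drives these genes, went from 0.166 to 0.0679, with a ratio of -0.87. Cpt1a, the carnitine step of mitochondrial import, had means of 0.219 and 0.240. The IRI cells without an S1 count had higher means of Cyp4a14 (0.928), Cyp4a10 (0.843) and Ehhadh (0.789) than those with one (0.221, 0.299 and 0.319). Their levels were thus highest in the cells without S1 transporters, and were higher than in control also in the cells with them.

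**Figure D4:**
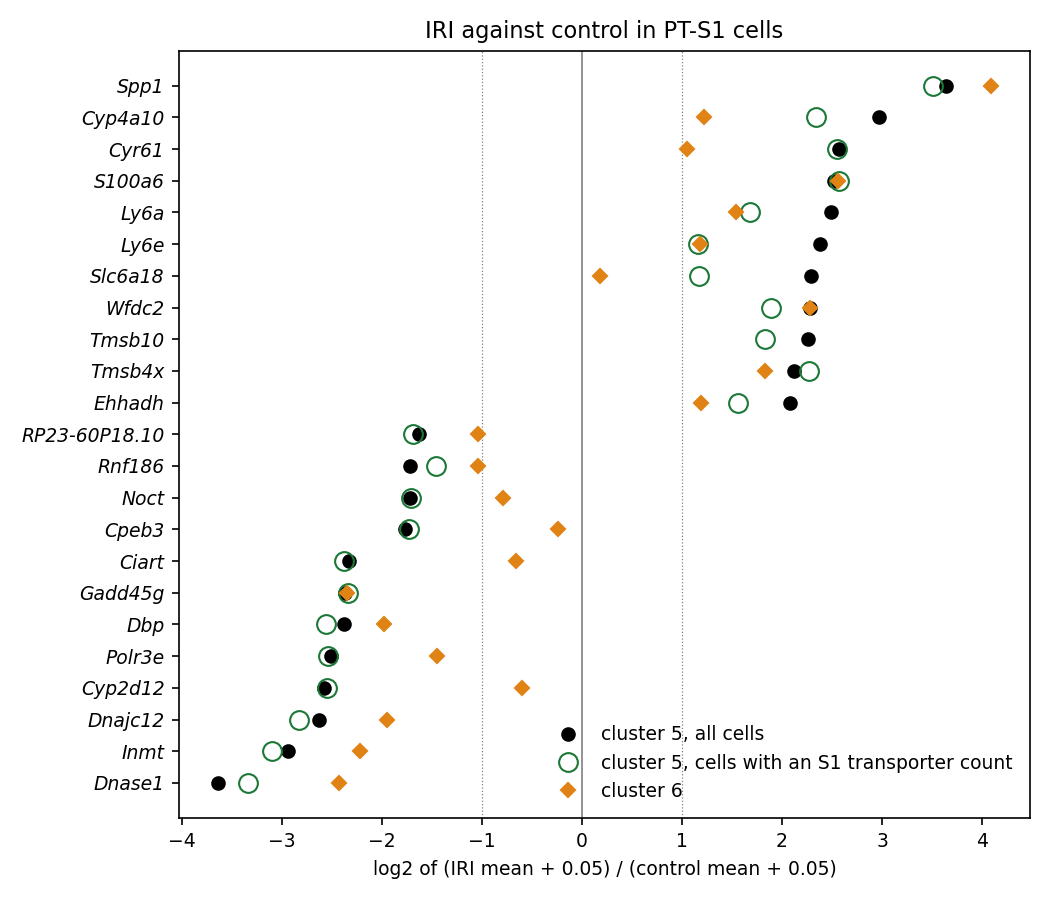
Log2 ratios of IRI over control (means plus 0.05) for the 12 highest and 12 lowest genes of cluster 5, without Cyp4a14, which was listed at 0 in control; filled circles are all cells of cluster 5, open circles its cells with an S1 count and diamonds cluster 6. Dotted lines mark 2-fold. Slc6a18, Ly6e and Ly6a lie nearer to 0 in cells with an S1 count, while Dnase1, Inmt and Dbp stay beyond 2-fold lower in each set.

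Of 10 S1 genes 3 were at least 2-fold lower in IRI and none higher (median -0.80). With the trimmed mean scaling none of the 10 reached 2-fold (median -0.43), and with the other scalings 1 did. These were Slc6a19 (-1.06), Adra1a, an adrenergic receptor (-1.11), and the secreted phosphoprotein gene Spp2 (-1.16). In cells with an S1 count the log2 ratios of Slc5a2, Slc5a12 and Slc6a19 were -0.20, -0.53 and -0.60. Choosing those cells by these very genes raises their levels, so the values are a description. In the same cells, the S1 genes not used for choosing them went both ways. Spp2, Adra1a, Slc7a7 and Slc6a6 had ratios of -0.97, -0.93, -0.58 and -0.07, and Gatm, Slc7a8 and Slc2a2 had 0.42, 0.18 and 0.0092. The S3 genes Atp11a and Slc5a8 were at least 2-fold higher, 2 of 9 measured. Atp11a, a phospholipid flippase, averaged 0.148 in control cells and 0.583 in IRI, and a log2 ratio of 0.80 in cells with an S1 count against 1.67 in all. Slc5a8, a monocarboxylate transporter, had means of 0.0424 and 0.255, and ratios of 0.52 and 1.73. Over the S3 list the median was 0.15 in all cells and -0.72 in cells with an S1 count. That choice of cells left out 166 IRI cells, 74.7% of them with an S3 count, but only 16 control cells. T cells had S3 counts in 45.8% of control and 10.3% of IRI cells. The part of the choice and of free RNA in the lower median was not tested.

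S2 and late transporter genes shared this pattern in part. Slc22a6, the organic anion transporter OAT1, averaged 0.311 and 0.812, which gave 1.26 on the log2 scale in all cells and 0.63 in those with an S1 count. Slc13a3, a dicarboxylate transporter, had means of 0.269 and 1.10, and its ratio stayed at 1.64 in cells with an S1 count. Slc6a18, a neutral amino acid transporter of the later tubule, had means of 0.0389 and 0.383, with ratios of 2.29 and 1.17. Slc22a12, the urate transporter URAT1, had means of 0.251 and 1.16, and Slc13a1, the sulphate transporter, 0.580 and 1.25. Slc6a18, Slc22a12 and Slc13a1 were the 3 members past 2-fold of the 22 measured solute transporters of that list, which does not hold Slc22a6 and Slc13a3, and Slc34a1 had a log2 ratio of -0.24. Lrp2, the endocytic receptor megalin, had means of 1.70 and 2.70, and none of the 17 measured genes of the brush border and endocytosis list reached 2-fold (3 with the trimmed mean scaling and 1 with the reduced totals). In the acid-base list Car4, a membrane-anchored carbonic anhydrase, had a ratio of 1.28, and Car14, another membrane form, had means of 0.696 and 0.208, a ratio of -1.53.

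The genes lower in IRI were led by Dnase1. This secreted nuclease averaged 1.95 in control cells and 0.110 in IRI, with counts in 71.4% and 6.79% of cells, and T cells had 0.237 and 0.0103. Its log2 ratio was -3.64 in all cells, -3.34 in cells with an S1 count and -2.43 in cluster 6. Inmt, an amine methyltransferase, had means of 0.717 and 0.0499, and Dnajc12, a co-chaperone of the aromatic amino acid hydroxylases, 0.693 and 0.0699. Cyp2d12, a cytochrome P450, had means of 0.428 and 0.0299. Polr3e, a subunit of RNA polymerase III, had means of 2.55 and 0.407, and Gadd45g, a stress-induced growth arrest gene, 3.24 and 0.587. All 12 of the lowest genes kept a log2 ratio of -1.46 or below in cells with an S1 count.

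Daily rhythm and glucocorticoid genes were the list with the most members 2-fold lower. Of 22 measured members 8 were at least 2-fold lower in IRI and 2 higher, with a median of -0.81 (-0.82 in cells with an S1 count, -0.47 with the trimmed mean scaling, which left 5 lower). In cluster 6 the median was -0.19, with 2 members lower and none higher. Summed over 26 members, the means were 9.51 in control and 5.18 in IRI in cluster 5. The same sums were 3.65 and 2.02 in cluster 6 and 3.37 and 1.78 in T cells. The lower sum in IRI was thus not particular to cluster 5. Levels in cluster 6 were lower, and there the pseudocount shrinks ratios more. Dbp, a transcription factor under direct clock control, averaged 0.576 and 0.0699, with a ratio of -2.38. Ciart, a repressor of the clock, had means of 0.261 and 0.0120, with counts in 24.4% and 1.20% of cells. Nr1d1, the clock receptor REV-ERB alpha, had means of 0.138 and 0.0240, and Per1, a core clock gene, 0.177 and 0.0539. Fkbp5, a co-chaperone of the glucocorticoid receptor induced by its hormone, had means of 0.293 and 0.0619. Tsc22d3, the glucocorticoid-induced leucine zipper, had means of 0.431 and 0.122, and Errfi1, a feedback inhibitor of the EGF receptor, 3.58 and 1.68. Ddit4, an inhibitor of mTOR signalling, had a ratio of -1.08. The 2 higher members were Txnip, a thioredoxin-binding protein, with means of 0.0495 and 0.248, and Pdk4. Sgk1, a glucocorticoid-induced kinase, had means of 0.643 and 0.934. The labels give no hour of day for either sample, so the time of collection and the injury cannot be told apart.

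Promoters of this group were searched for CACGTG, the E-box that clock activators bind, in the 250 bases before each RefSeq start (build GRCm38.p6). The letters are their own reverse complement, so both strands were covered. Counted per gene over all its start sites, the motif was found in 6.86% of the 27025 genes in the table (1854), and it stood at 6.02% of the 32851 start sites (1978). Of the 8 members at least 2-fold lower, 3 held it (Ciart, Per1 and Fkbp5), as did 2 of 12 other measured members with a promoter in the table. The 3 promoters of lower members that hold the motif are shown, while Dbp, Tsc22d3, Nr1d1, Ddit4 and Errfi1 were lower without it in this window. They are printed 5′ to 3′ with CACGTG in capitals. Their positions are chr3:95882229-95882478 (minus strand), chr11:69098699-69098948 (plus strand) and chr17:28486150-28486399 (minus strand).
Ciart: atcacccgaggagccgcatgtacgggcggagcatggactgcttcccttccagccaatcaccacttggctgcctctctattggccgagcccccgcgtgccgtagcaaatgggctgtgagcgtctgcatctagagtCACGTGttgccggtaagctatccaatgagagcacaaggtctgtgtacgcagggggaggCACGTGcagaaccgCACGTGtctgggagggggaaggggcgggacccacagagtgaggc
Per1: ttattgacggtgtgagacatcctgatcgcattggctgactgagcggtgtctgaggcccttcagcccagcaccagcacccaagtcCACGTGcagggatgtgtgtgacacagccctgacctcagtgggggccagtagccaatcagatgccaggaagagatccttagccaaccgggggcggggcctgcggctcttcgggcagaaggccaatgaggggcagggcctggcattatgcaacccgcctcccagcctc
Fkbp5: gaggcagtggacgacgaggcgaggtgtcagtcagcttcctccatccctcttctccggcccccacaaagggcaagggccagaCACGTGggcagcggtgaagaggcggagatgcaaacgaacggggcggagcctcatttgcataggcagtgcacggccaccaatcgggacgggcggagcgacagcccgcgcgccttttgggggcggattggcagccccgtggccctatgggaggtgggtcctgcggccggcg
The Ciart promoter held 3 copies and the others 1 each. A match describes these letters only, and no binding was measured.

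Stress genes moved in both directions. Of 21 immediate early genes 7 were at least 2-fold higher in IRI and 1 lower, with a median of 0.26. Cyr61, a secreted matrix-associated target of serum and stretch signals, had means of 0.120 and 0.962, log2 ratios of 2.57 in all cells and 2.55 in cells with an S1 count. Fos had means of 0.233 and 0.750, Fosb 0.102 and 0.411 and Klf6 0.106 and 0.467, while Jun stood at 1.64 and 1.85. The lower one was Nfkbia, the inhibitor of NF-kappa-B, with means of 0.297 and 0.0778. Of 23 heat shock and unfolded protein genes, 3 chaperones of the endoplasmic reticulum were at least 2-fold higher, among them Calr with means of 0.286 and 0.840. Herpud1, which acts in degradation at the endoplasmic reticulum, was lower, with means of 1.13 and 0.355, and Hspa5, the main chaperone there, had means of 0.512 and 0.519. Immediate early genes can also be induced by tissue dissociation, and that was not tested.

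Surface and matrix genes gave further higher members. Ly6a and Ly6e, which encode lipid-anchored surface proteins, had means of 0.0848 and 0.705 and of 0.0247 and 0.339, and their log2 ratios fell from 2.48 and 2.38 in all cells to 1.68 and 1.16 in those with an S1 count. In T cells Ly6a was at 0.814 and 0.773 and Ly6e at 2.66 and 2.35. B2m, the light chain of MHC class I, had means of 0.201 and 0.565, and these made 3 of 16 MHC class I and interferon genes. Col4a1, a basement membrane collagen, had means of 0.0353 and 0.257, and Gdf15, a secreted stress cytokine, 0.0106 and 0.182. Hmox1, haem oxygenase, had means of 0.0247 and 0.154 and Gstm1, a glutathione transferase, 0.198 and 0.541, as 2 of 24 antioxidant genes. Ctsd, a lysosomal protease, had means of 0.145 and 0.417 and was past 2-fold as 1 of 21 lysosomal genes (5 with the trimmed mean scaling, 3 with the reduced totals and 2 with cell proportions).

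Several lists had no member past 2-fold. None of 12 gluconeogenesis and fructose genes, 11 glycolytic, 23 amino acid breakdown, 50 nuclear-encoded respiratory chain, 13 mitochondrially encoded and 34 splicing genes reached 2-fold between the libraries. Over all measured genes only 0.836% were 2-fold higher and 1.41% lower. Lists of this size with none past 2-fold lie near those shares, so nothing particular to metabolism is read from them. Pck1, the committed enzyme of gluconeogenesis, averaged 4.67 in control cells and 4.76 in IRI, and G6pc, its last enzyme, 1.10 and 1.23. The medians of the gluconeogenesis and splicing lists were -0.33 and -0.38, and with the trimmed mean scaling 0.06 and -0.03. Creatine, arginine and polyamine genes gave none of 10 past 2-fold, and Gatm had means of 3.01 and 3.30. Among nuclear noncoding RNAs only Snhg11, with a log2 ratio of -1.53, passed 2-fold of 10 measured, and Malat1 and Neat1 had ratios of -0.39 and 0.21.

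Cluster 6 gave a second reading of the same libraries. There 56 of 7675 genes (0.73%) were at least 2-fold higher in IRI and 28 (0.365%) at least 2-fold lower, and 78 and 22 with totals that leave out mitochondrial, ribosomal and haemoglobin genes and Malat1. Among 7404 genes measured in both clusters, 35 higher genes were shared, 47.9% of the 73 of cluster 5 and 62.5% of the 56 of cluster 6. Lower genes shared were 18, 15.4% of the 117 of cluster 5 and 64.3% of the 28 of cluster 6. No gene was 2-fold higher in one cluster and 2-fold lower in the other. Both clusters come from the same 2 libraries and share their free RNA, so that the overlap is no replication. Genes whose ratios differed most between the clusters included Slc6a18 (2.29 in cluster 5, 0.18 in cluster 6), and, in the lower direction, Cyp2d12 (-2.58 and -0.60) and Ciart (-2.33 and -0.67). In cluster 6 Ciart and Cyp2d12 were already at 0.0326 and 0.0290 in control, below the pseudocount of 0.05.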

How the data were processed

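Droplet single-cell RNA libraries of 1 control and 1 IRI kidney sample were processed by the authors with Cell Ranger 3.0.0 and Seurat 3.2 on build mm9, per the submitters' processing notes. The deposited table holds whole-number scores per gene and cell for 15169 genes: they are depth-corrected counts, since per the file headers the cell annotation lists totals of the SCT assay (Seurat's SCTransform), and these matched the table's column sums in all 11759 cells. Corrected totals lay between 1468 and 3212 per cell, so raw depth was taken from the annotation. That annotation has no separators. In 3615 cells, among them 558 of the 784 cells of cluster 5, its digits could be split in more than 1 way. The first split with at least 200 genes was kept, and the raw depths given for cluster 5 rest on that choice. No count model was used, doublets were not called here, and how the authors treated them is not given in the sources used here.

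Means per library and cluster were compared as log2 ratios with a pseudocount of 0.05 over genes whose corrected counts summed to 10 or more, in Python 3.11.15 (numpy 2.4.6, scipy 1.17.1, pandas 2.3.3, matplotlib 3.10.9); the script was tested on simulated data. Genes ranked by the text are the 12 highest and 12 lowest ratios (6 each way for the difference between clusters) among genes summing to 30 or more with a mean of 0.1 or more, without mitochondrial, ribosomal, haemoglobin, Gm-numbered and Rik genes, besides members of the gene lists. The members and lists were chosen with earlier results of these data known. The alternatives were other pseudocounts, filters, scalings, depth limits, comparison cells and fold limits. RefSeq promoter coordinates belong to GRCm38.p6, not to the build of the files.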

Additional observations from a re-analysis of the deposited data

Results flagged for a closer look

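Of the 12 genes whose IRI over control log2 ratios differed most between cluster 5 and cluster 6, 7 had opposite signs in the clusters. Each cluster has 1 library per condition, and none of these differences was tested. The difference between the clusters was 2.09 for Slc5a8 (1.73 in cluster 5, -0.37 in cluster 6), 2.01 for Atp11a (1.67 and -0.33) and 1.64 for Mep1a, a brush border metalloprotease (1.32 and -0.32). It was -1.71 for Tfg (-0.53 and 1.18), -1.67 for Fkbp5 (-1.62 and 0.05), -1.65 for Fam13a (-1.16 and 0.49) and -1.56 for Nfkbia (-1.44 and 0.12). Of the higher ones, Slc5a8, Atp11a and Mep1a had ratios of 0.52, 0.80 and 0.39 in cluster 5 cells with an S1 count.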

How the results depend on the processing

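No paired analysis was possible because each condition is 1 library with no replicate number, and no replicate could be left out. Of 864 values of single genes under an alternative, 710 moved by less than 1.5-fold, 138 moved further and 16 changed sign; of 351 list medians, 344 moved by less than 1.5-fold. Counts of genes at least 2-fold higher and lower are given in that order. For IRI over control in cluster 5 they were 26 and 19 with a pseudocount of 0.2, 233 and 1029 with 0.01, 170 and 50 with the trimmed mean scaling, and 29 and 18 at 3-fold; lower genes were 66 with at least 100 summed counts, 72 with totals without mitochondrial, ribosomal and haemoglobin genes and Malat1, and 80 with means of proportions. List medians became -0.71 and -2.57 for erythrocyte genes with pseudocounts of 0.2 and 0.01, 1.76 (0.01) and 2.26 (100 counts) for injury genes, 0.93 (100 counts) and -0.72 (cells with an S1 count) for S3 genes, and 1.84 (100 counts) for MHC class I and interferon genes. For cluster 6 the counts were 9 and 11 (0.2), 548 and 207 (0.01), 29 and 18 (100 counts) and 9 and 5 (3-fold); 116 were higher with 2000 raw UMIs or more, and 338 and 65 at 4000 to 8000. For cluster 5 over 6 in control they were 190 and 180 (0.2), 2709 and 605 (0.01), 382 and 898 (trimmed mean) and 278 and 8 (3-fold); 232 were higher with 100 counts, 136 lower against all other proximal tubule cells, and 234 and 192 against cluster 8. In IRI they were 136 and 80 (0.2), 1585 and 834 (0.01), 155 and 9 (3-fold), and 244 and 140 against Injured PT cells; 322 were higher with 100 counts, and lower ones were 543 (trimmed mean), 143 (totals without those genes), 503 (2000 UMIs), 509 (4000 to 8000) and 75 (other proximal tubule cells). Log2 ratios that changed sign did so only with other comparison cells: Fabp3 0.67 against all other proximal tubule cells; against cluster 8, Arf5 0.24, Dynlrb1 0.13, Eif3e 0.73, Fabp3 2.37, Mif 1.28, Pfn1 0.61, RP23-306P12.3 -0.72, S100a1 0.10, Slc22a30 -0.97, Sumo2 0.48, Timp3 -0.23, Uqcrb 0.50 and Zbtb20 -1.09; against Injured PT cells, Eif3e 0.045 and Iscu 0.66. The IRI to control ratio of the share of cluster 5 was 2.26 over all cells and 2.62 over PT-S1 to PT-S3 cells. The cause of these shifts was not tested. The depth window, the cells with an S1 count, the shared barcodes, cluster 8 and the Injured PT cells were chosen after seeing the data. Low genes are limited by depth: near the pseudocount a ratio reflects few counts.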
